A study of Mus musculus with 9 samples.

Results

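The transcripts described here belong to 10 genes of the major histocompatibility complex (MHC) class I antigen presentation pathway, out of 24571 gene symbols in a table of mouse heart RNA abundances. The list was set by function: the classical heavy chains *H2-K1* and *H2-D1*, the light chain *B2m*, the peptide transporter and loading genes *Tap1*, *Tap2* and *Tapbp*, the peptide generating and trimming genes *Psmb8*, *Psmb9* and *Erap1*, and the transactivator *Nlrc5*. Poly-A RNA had been sequenced from hearts of late-gestation C57BL/6N embryos (E18.5), in 3 libraries each from wild type hearts, hearts heterozygous for the R567W allele of *Ctcf* and hearts homozygous for it. The allele is a missense change of the chromatin architecture protein CTCF, made by CRISPR/Cas9 editing and carried in every cell, so that it was not limited to the heart. No treatment was compared between the groups. The authors anaesthetised the pregnant mice with Avertin (tribromoethanol) before the embryos were taken. Abundances are in TPM, a share of all transcripts that is corrected for transcript length. It keeps no sequencing depth, so counting error cannot be given, and precision is judged from how far the 3 libraries of a genotype lie apart. The labels do not say that the libraries of a genotype came from separate embryos, and p-values measure the spread between these libraries.

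MHC class I molecules display short peptides from a cell's own proteins to CD8 T cells. Proteasomes cut the proteins, the TAP1-TAP2 transporter carries the peptides into the endoplasmic reticulum, ERAP1 trims them, and tapasin (*Tapbp*) holds the transporter beside empty heavy chain and B2m dimers until a peptide is bound. Nearly all nucleated cells make these transcripts, interferons raise many of them through IRF1 and NLRC5, and the immunoproteasome subunits *Psmb8* and *Psmb9* are made chiefly in haematopoietic cells and after interferon. In the heart, cardiomyocytes are known to carry less class I at their surface than endothelium and leukocytes do.

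In the 9 libraries, no class I gene passed the test between genotypes, and the extreme levels came from single libraries. Homozygous replicate 3 had the highest level of 9 of the 10 transcripts, up to 10.1 times the median of the other 8 libraries for *Psmb8*. Homozygous replicate 1 had the lowest level of 7 of them. The same homozygous replicate 3 carried transcripts of thymus cells that were near 0 in the other hearts.

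Of the 10 genes, 7 lie on chromosome 17 in the mouse MHC region (mm10, GENCODE M21 gene models). *Tapbp* (chr17:33915899-33929292, plus strand) and *H2-K1* (chr17:33996017-34000347, minus) stand on one side, *H2-D1* (chr17:35262730-35267499, plus) on the other. Between them, *Psmb9* (chr17:34181987-34187764, minus), *Tap1* (chr17:34187553-34197225, plus), *Psmb8* (chr17:34197721-34201454, plus) and *Tap2* (chr17:34203527-34216321, plus) fill 34.3 kb. *B2m* lies at chr2:122147686-122153083 (plus), *Erap1* at chr13:74639568-74693201 (plus) and *Nlrc5* at chr8:94434356-94527272 (plus). The *Psmb9* and *Tap1* models share 212 bases on opposite strands, and since the use of strand in counting was not stated, reads there cannot be assigned to one of them. Among the transcript words of 31 bases, 22.8% of those of *H2-K1* and 26.9% of those of *H2-D1* also occur in other genes, chiefly in each other and in Qa genes, so their split depends on how reads with several matches were shared out. For *Tapbp* the share was 26.9%, for *Tap2* 14.3%, for *Psmb8* 13.7% and for *Erap1* 11.0%, mostly with overlapping gene models. *B2m* shared none.

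Promoter sequences of RefSeq (GRCm38.p6, the same assembly as mm10) were matched for 8 of the 10 genes, and 4 windows are shown because they belong to the heavy chains and light chain of the class I molecule and to the divergent *Psmb9* and *Tap1* pair. They are the 250 bases before a transcript start of *H2-K1* (chr17:34000348-34000597, minus strand), *H2-D1* (chr17:35262844-35263093, plus) and *B2m* (chr2:122147437-122147686, plus), and the 225 bases between the opposite starts of *Psmb9* and *Tap1* (chr17:34187331-34187555, plus), each read 5′ to 3′. All starts are those of RefSeq. The *H2-D1* window lies inside the GENCODE model of that gene, which begins at an earlier start, and the *Psmb9* and *Tap1* window lies inside the GENCODE model of *Psmb9*, which begins at 34187764. Capitals mark the letters found on either strand of 5 motifs: the core TTCNNTTTC of the interferon-stimulated response element, a form of it with the longer arm first, TTTCNNTTC, the core GGGATTCCC of enhancer A, where NF-kB proteins bind, and the cores TGACG and CCAAT of the X2 and Y boxes, where the assembly that recruits NLRC5 sits. None of these motifs contains another.
H2-K1: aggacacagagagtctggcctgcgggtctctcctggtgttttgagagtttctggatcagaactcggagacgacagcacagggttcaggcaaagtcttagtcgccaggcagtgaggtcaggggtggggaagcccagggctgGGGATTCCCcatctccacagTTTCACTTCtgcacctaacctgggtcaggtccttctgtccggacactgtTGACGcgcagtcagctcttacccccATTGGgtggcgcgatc
H2-D1: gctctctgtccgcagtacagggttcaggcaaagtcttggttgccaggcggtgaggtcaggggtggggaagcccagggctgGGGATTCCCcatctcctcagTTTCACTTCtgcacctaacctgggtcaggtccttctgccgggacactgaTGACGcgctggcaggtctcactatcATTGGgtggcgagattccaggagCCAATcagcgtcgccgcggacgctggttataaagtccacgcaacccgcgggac
B2m: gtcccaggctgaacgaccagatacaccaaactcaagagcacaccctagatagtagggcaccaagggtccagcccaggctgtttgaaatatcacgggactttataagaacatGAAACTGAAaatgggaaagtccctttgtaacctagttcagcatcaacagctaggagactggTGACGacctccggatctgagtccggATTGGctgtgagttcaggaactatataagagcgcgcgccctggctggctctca
Psmb9-Tap1: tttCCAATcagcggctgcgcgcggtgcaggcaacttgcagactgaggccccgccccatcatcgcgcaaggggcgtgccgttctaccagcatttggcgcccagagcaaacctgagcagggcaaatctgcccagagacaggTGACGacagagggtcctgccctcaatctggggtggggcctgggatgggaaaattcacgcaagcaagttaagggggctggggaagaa

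The GGGATTCCC letters were in the windows of *H2-K1* and *H2-D1* and in 0.301% of 32851 mouse promoter windows of the same length. The *H2-K1* and *H2-D1* windows were identical at 170 of 190 aligned bases (89.5%). TTTCNNTTC was in both of them and in 6.31% of all windows, whereas TTCNNTTTC was in the *B2m* window, in that of *Erap1* and in 7.13% of all. TGACG was in the windows of 5 of the 8 genes (17.8% of all windows) and CCAAT in 6 of the 8 (33.8% of all). A gene counted if any of its windows held the letters, whereas the shares are of single windows. *Psmb9* and *Tap1* also share the 225 bases between their starts, and *H2-K1* and *H2-D1* are largely identical, so the genes are not independent occurrences. A match describes letters in a window and not a bound site.

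In wild type hearts the transcripts spanned a wide range of TPM. *B2m* was the most abundant, at 179 ± 27.0 TPM (SD, n = 3). *H2-D1* (29.0 ± 4.39), *H2-K1* (27.2 ± 4.16) and *Tapbp* (23.2 ± 3.97) followed, and these neighbours overlapped between libraries. *Erap1* (7.02 ± 1.91) and *Psmb8* (4.90 ± 1.27) overlapped as well, as did *Psmb8* with *Tap1* (3.57 ± 0.716) and *Tap1* with *Tap2* (3.39 ± 0.670). *Psmb9* stood below them at 1.497 ± 0.289 TPM, and *Nlrc5* was lowest at 0.343 ± 0.136 TPM. The order therefore had clear steps below *B2m*, below *Tapbp*, below *Tap2* and below *Psmb9*, and none between the genes in between.

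The light chain and heavy chains, which form the surface molecule, were at similar levels in most hearts. *H2-K1* was at 32.0, 25.3 and 24.4 TPM in wild type replicates 1 to 3, at 28.8, 23.6 and 24.9 in the heterozygous ones, and at 19.8, 21.1 and 50.5 in the homozygous ones. The first 2 homozygous libraries were thus the lowest of the 9 and the third was the highest by 1.58 times. *H2-D1* was at 27.3, 25.65 and 33.9 TPM in wild type, 35.4, 28.6 and 34.0 in heterozygous and 20.4, 29.97 and 44.6 in homozygous hearts. *B2m* was at 179.6, 152 and 206 TPM in wild type, 202, 163 and 209.8 in heterozygous and 135, 177 and 242 in homozygous hearts. For both, homozygous replicate 1 was the lowest and replicate 3 the highest, and the groups overlapped. Against wild type, the fitted log2 change of *H2-K1* in homozygous hearts was 0.03 (SE 0.29, 95% interval -0.62 to 0.68), that of *H2-D1* 0.07 (SE 0.24, interval -0.46 to 0.59) and that of *B2m* 0.02 (SE 0.20, interval -0.43 to 0.46), on the log2(TPM + 1) scale. By limma, with Benjamini-Hochberg adjustment over all 13682 genes tested, their adjusted p-values were 0.950, 0.870 and 0.966.

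The transporter subunits had low levels, and 1 library stood out. *Tap1* was at 3.37, 2.97 and 4.36 TPM in wild type, 3.81, 2.6 and 5.91 in heterozygous and 1.40, 3.14 and 9.79 in homozygous hearts. *Tap2* was at 3.40, 2.72 and 4.06 TPM in wild type, 3.11, 2.98 and 3.81 in heterozygous and 2.59, 3.68 and 16.1 in homozygous hearts. Without homozygous replicate 3, the highest *Tap2* level was 1.57 times the lowest, and with it 6.20 times. *Tapbp*, encoding tapasin, behaved otherwise: it was at 23.9, 18.9 and 26.7 TPM in wild type, 27.8, 22.99 and 27.4 in heterozygous and 25.2, 30.4 and 24.9 in homozygous hearts. Homozygous replicate 3 was among the middle values for *Tapbp*, 0.958 times the median of the other 8. The log2 changes from wild type to homozygous were 0.07 for *Tap1* (SE 0.46, adjusted p = 0.935), 0.60 for *Tap2* (SE 0.46, adjusted p = 0.412) and 0.21 for *Tapbp* (SE 0.15, adjusted p = 0.376) by limma.

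The immunoproteasome subunits, which replace the constitutive catalytic subunits of the proteasome, varied most. *Psmb8* was at 4.07, 4.28 and 6.36 TPM in wild type, 3.64, 4.52 and 6.33 in heterozygous and 2.43, 3.35 and 42.1 in homozygous hearts. *Psmb9* was at 1.83, 1.32 and 1.34 TPM in wild type, 1.39, 0.71 and 2.04 in heterozygous and 0.29, 2.05 and 9.61 in homozygous hearts. For *Psmb8*, homozygous replicates 1 and 2 lay below every other library while replicate 3 lay 6.62 times above the next highest. The highest *Psmb9* level was 33.1 times the lowest, and both ends were homozygous. *Erap1*, the trimming peptidase, was at 5.50, 6.39 and 9.16 TPM in wild type, 8.14, 7.25 and 9.0 in heterozygous and 7.27, 9.15 and 9.19 in homozygous hearts, so that no library stood apart. The log2 changes from wild type to homozygous were 0.57 for *Psmb8* (SE 0.75, interval -1.09 to 2.23, adjusted p = 0.630), 0.48 for *Psmb9* (SE 0.60, interval -0.85 to 1.81, adjusted p = 0.610) and 0.27 for *Erap1* (SE 0.18, interval -0.14 to 0.68, adjusted p = 0.353) by limma.

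*Nlrc5*, the transactivator that drives class I promoters, was at 0.47, 0.36 and 0.20 TPM in wild type, 0.29, 0.11 and 0.73 in heterozygous and 0.29, 0.25 and 0.94 in homozygous hearts. Its mean of 0.404 TPM was under the minimum of 1 TPM for testing. In a fit with no minimum its log2 change from wild type to homozygous was 0.13 (SE 0.21), with an adjusted p of 0.781 by limma, and differences of this size were not detectable at such a level.

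**Figure D1:**
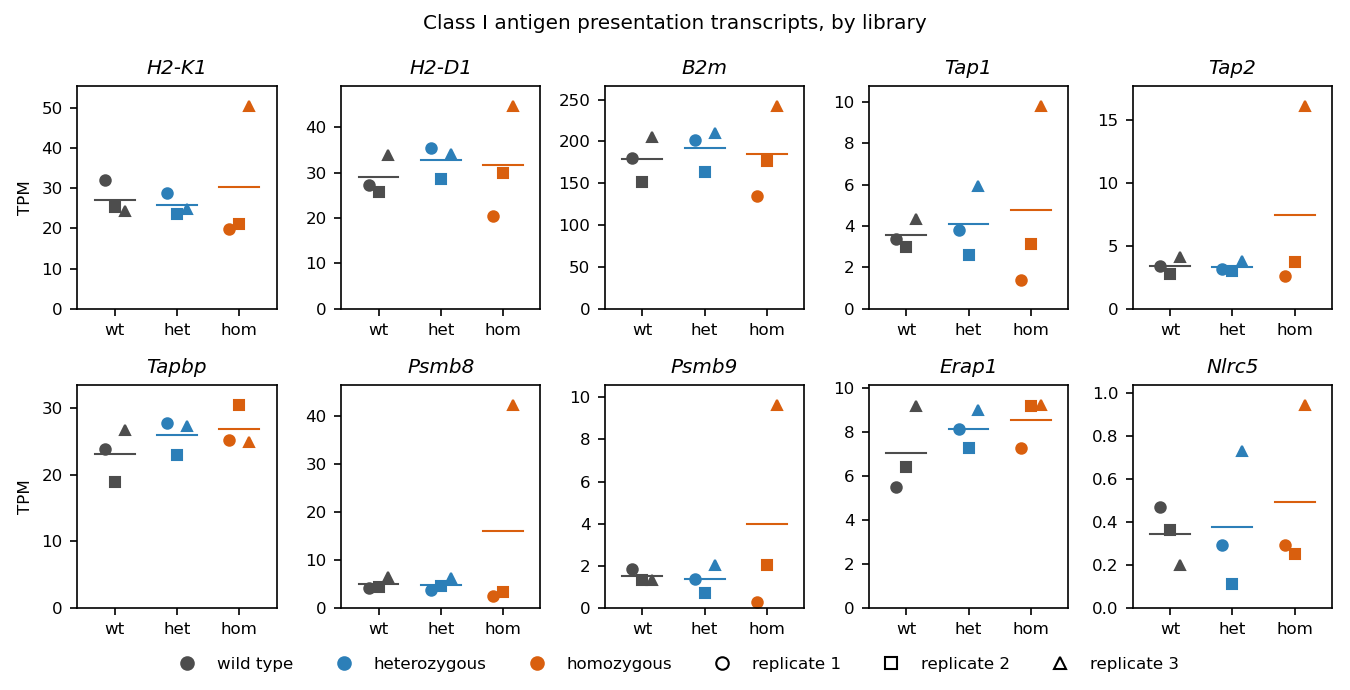
TPM of the 10 class I antigen presentation transcripts in each library, by genotype (wt, wild type; het, heterozygous; hom, homozygous), on linear axes that start at 0; points are libraries and bars are means of 3. The homozygous triangle (replicate 3) is the highest point in 9 of the 10 panels, at 42.1 TPM for *Psmb8*, and the circle (replicate 1) is the lowest in 7.

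Across the genotypes, 0 of the 9 class I genes tested passed an adjusted p of 0.05 in homozygous against wild type hearts, where 46 of all genes tested (0.336%) did. The count was also 0 in homozygous against heterozygous hearts (0.0439% of all genes) and in heterozygous against wild type hearts (0.0146%). At an unadjusted p under 0.05, 0 of the 9 passed in each comparison by limma, against 25.0%, 7.15% and 6.87% of all genes. All 10 transcripts overlapped between the groups in each comparison, whereas 24.7%, 15.9% and 13.8% of all genes tested did not. A log2 change above 0 from wild type to homozygous was seen for 9 of the 9 genes and for 81.7% of all genes. Their median change was 0.21, beside a median of 0.23 over all genes, so relative to all genes it was -0.02. Between heterozygous and homozygous hearts 6 of the 9 changes were above 0 (65.9% of all genes), and they ran from -0.11 for *H2-D1* to 0.62 for *Tap2* with a median of 0.06. Between wild type and heterozygous hearts 5 of the 9 were above 0 (81.5% of all genes), from -0.10 for *Psmb9* to 0.21 for *Erap1* with a median of 0.10. The 3 comparisons share libraries and are not independent of each other. With median-ratio scaling, the median over all genes was 0.02 instead of 0.23 and 4 of the 9 class I changes from wild type to homozygous were above 0, so that the sign of a small change depended on the scaling.

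Homozygous replicate 3 was the highest library for 8 of the 9 tested genes, beside 16.6% of all genes tested, and was at least 1.5 times the median of the others for 6 of the 9, beside 10.4%. Homozygous replicate 1 was the lowest for 7 of the 9, beside 2.61%. The SD within the homozygous group was 17.4 TPM for *H2-K1* and 22.7 TPM for *Psmb8*, against 4.16 and 1.27 TPM in wild type hearts.

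Without homozygous replicate 3, the picture between homozygous and wild type hearts turned. The median change of the 9 genes was then -0.21 beside 0.28 over all genes. Of the 9, 2 were above 0, *Tapbp* and *Erap1*, beside 83.8% of all genes. *H2-K1* and *Psmb8* were lower in both remaining homozygous libraries than in every wild type library, where 3.49% of all genes did the same. Their log2 changes were -0.39 (SE 0.15) and -0.59 (SE 0.25). Both had an unadjusted p under 0.05, as 33.2% of all genes did in that fit. Neither passed after adjustment by limma (adjusted p = 0.119 for *H2-K1*, range 0.119 to 0.998 over all settings tried, and adjusted p = 0.145 for *Psmb8*, range 0.145 to 0.887). Thus 0 of the 9 were called in that fit too, beside 1.81% of all genes. Leaving out homozygous replicate 1 instead put all 9 changes above 0, as were 77.6% of all genes. Their median was 0.37, beside 0.21 over all genes. In that fit 0 of the 9 were called by limma, beside 28 of all 13682 genes. At an unadjusted p under 0.05 there were 2, beside 2569 of all genes. The values of the remaining pair in either case rest on 2 libraries.

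**Figure D2:**
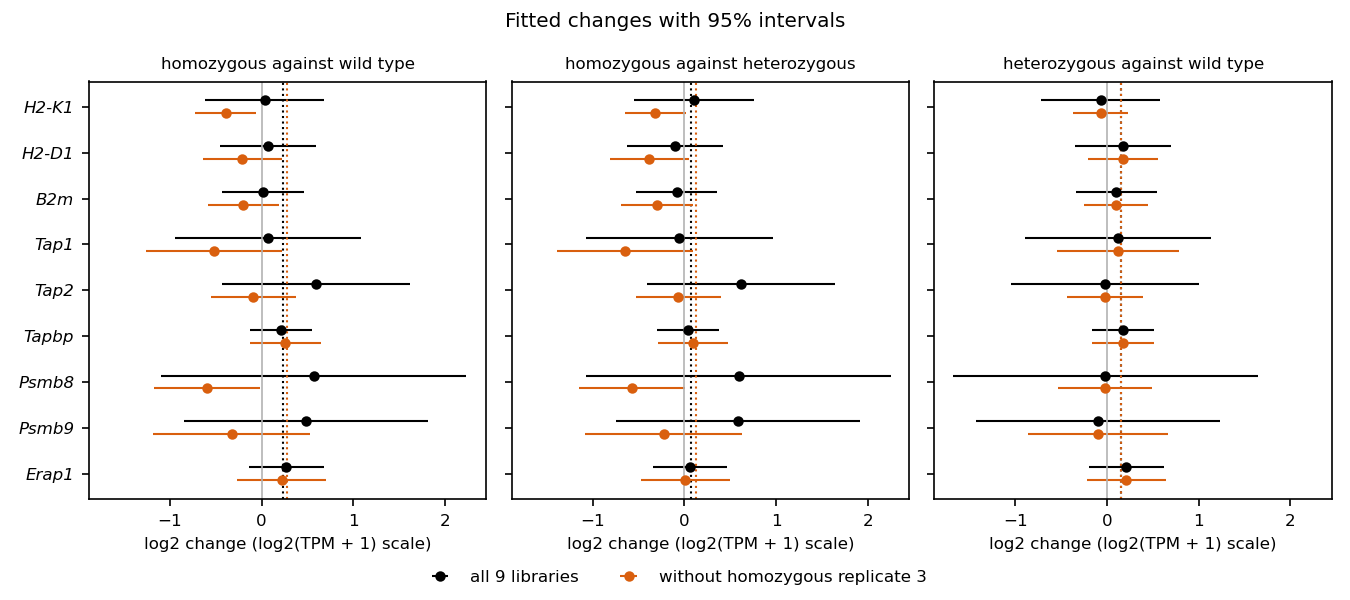
Fitted log2 change of the 9 class I genes tested in each comparison, with 95% intervals, from all 9 libraries (black) and without homozygous replicate 3 (orange); the dotted lines are the medians over all 13682 genes. With all libraries the black intervals include 0 for every gene, and without homozygous replicate 3 the *H2-K1* and *Psmb8* intervals (around -0.39 and -0.59) lie below 0 against wild type.

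Markers of other cell types moved with homozygous replicate 3. Of 14 thymocyte markers, 14 were highest in it, with a summed level of 752 TPM against 1.22 to 4.06 in wild type hearts, 2.13 to 3.52 in heterozygous hearts and 2.88 and 3.47 in the other homozygous hearts. *Rag1*, the recombinase of developing lymphocytes, was at 92.4 TPM there and at most 0.29 elsewhere, and *Cd8a*, a co-receptor of T cells for class I, at 92.5 against at most 0.19. *Cd3g* and *Rag2* were at 0 in every wild type library. All 6 thymic epithelium markers were highest in the same library (summed 232 TPM against 3.60 to 11.3), including *Psmb11*, a proteasome subunit of the thymus, at 5.54 TPM and at 0 in the other 8. The 7 leukocyte markers were highest there too (299 TPM against 25.3 to 38.3), whereas 0 of 10 macrophage markers were, and their sum of 85.0 TPM lay within the range of 53.9 to 105 of the other libraries. Cardiomyocyte markers, which define the labelled tissue, were abundant throughout but lowest in it, at 36566 TPM against 43220 to 51755. The part of these cells in the class I levels was not tested, and in whole hearts fewer cells of a type and less RNA per cell cannot be told apart.

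Wild type replicate 1 and heterozygous replicate 1 carried lung markers. Of 12 such genes, *Hopx* was made in every heart (244 to 374 TPM), and the others summed to 2627 and 1109 TPM in these libraries against 2.19 to 52.8 TPM in the rest. Most of these sums was *Scgb3a2* alone, at 2355 and 1053 TPM. *Scgb1a1* went the same way (159 and 46.0 TPM). *Sftpc* was at 75.6 TPM in wild type replicate 1 but at 0.39 in heterozygous replicate 1, below the 3.91 of homozygous replicate 1, so not every lung marker was raised in both. In addition, heterozygous replicate 1 carried liver markers (4098 TPM against 30.6 to 169). Without these and homozygous replicate 3 together, 0 of the 9 class I genes were called between wild type and homozygous hearts by limma, beside 11 of all 13682 genes. At an unadjusted p under 0.05 there was 1, beside 2569 of all genes. The median class I change there was -0.23, beside 0.22 over all genes. *Xist*, transcribed from the inactive X chromosome of female cells, was between 87.8 and 146 TPM in wild type replicate 1, the 3 heterozygous libraries and homozygous replicate 1, and at most 0.05 TPM in the others. By this transcript the wild type and homozygous groups had the same mix of sexes. The heterozygous group differed from both, so that sex and genotype were not balanced in its comparisons. With *Xist* as a covariate 0 class I genes were called in each comparison. Of all 13682 genes, 33 were called between wild type and homozygous hearts, 0 between heterozygous and homozygous and 1 between wild type and heterozygous. Between wild type and homozygous hearts 0 class I genes had an unadjusted p under 0.05 by limma, beside 3261 of all genes. In that fit 9 of the 9 changes from wild type to heterozygous were above 0 (80.2% of all genes), with a median of 0.47, beside 0.19 over all genes. Of the 9, 1 had an unadjusted p under 0.05 there by limma, beside 970 of all genes. From heterozygous to homozygous 2 of the 9 were above 0 (58.7% of all genes), with a median of -0.19 beside 0.04. Without the covariate these medians were 0.10 and 0.06. *Ctcf* itself was at 27.0 to 34.3 TPM in wild type, 33.15 to 38.65 in heterozygous and 38.9 to 50.2 in homozygous hearts (log2 change 0.52, SE 0.14, adjusted p = 0.107 by limma), and a missense allele is not checked by the level of its transcript.

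Ratios within a library do not depend on how libraries are scaled. *Psmb8* amounted to 3.17% ± 0.577 (SD, n = 3) of *Psmb5*, the constitutive subunit it replaces, in wild type hearts and to 3.10% ± 0.767 in heterozygous ones. In homozygous hearts it amounted to 1.53%, 2.20% and 30.9%. *Psmb9* was at 0.666% ± 0.127 of its counterpart *Psmb6* in wild type, 0.608% ± 0.279 in heterozygous and 0.126%, 0.885% and 4.80% in homozygous hearts. *Psmb10*, the third immunoproteasome subunit, was far nearer to its counterpart *Psmb7*, at 18.9% ± 1.95, 19.6% ± 2.09 and 22.3% ± 6.85. The heavy chains *H2-K1* and *H2-D1* together amounted to 31.7% ± 2.87 of *B2m* in wild type, 30.6% ± 2.21 in heterozygous and 32.6% ± 5.78 in homozygous hearts (29.7%, 28.9% and 39.3%). Homozygous replicate 3 was the highest library for both of these ratios as well. The constitutive subunits were steadier than their replacements: *Psmb5* was between 136 and 166 TPM, and *Psmb6* between 200.4 and 232 TPM, over all 9 libraries.

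None of the 12 ratio comparisons gave an adjusted p below 1 (exact two-sided permutation tests over libraries). For homozygous against wild type the log2 differences were 0.59 for *Psmb8* to *Psmb5* (exact p = 1), 0.30 for *Psmb9* to *Psmb6* (exact p = 0.7), 0.20 for *Psmb10* to *Psmb7* (exact p = 0.7) and 0.03 for the heavy chains to *B2m* (exact p = 0.8). With 3 libraries against 3, such a test cannot give a p below 0.1. Without homozygous replicate 3 the *Psmb8* to *Psmb5* difference was -0.77 instead, with both remaining libraries below all 3 wild type ones (exact permutation p = 0.1, the smallest that 2 against 3 can give), and the *Psmb9* to *Psmb6* difference was -0.98 (exact permutation p = 0.5).

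**Figure D3:**
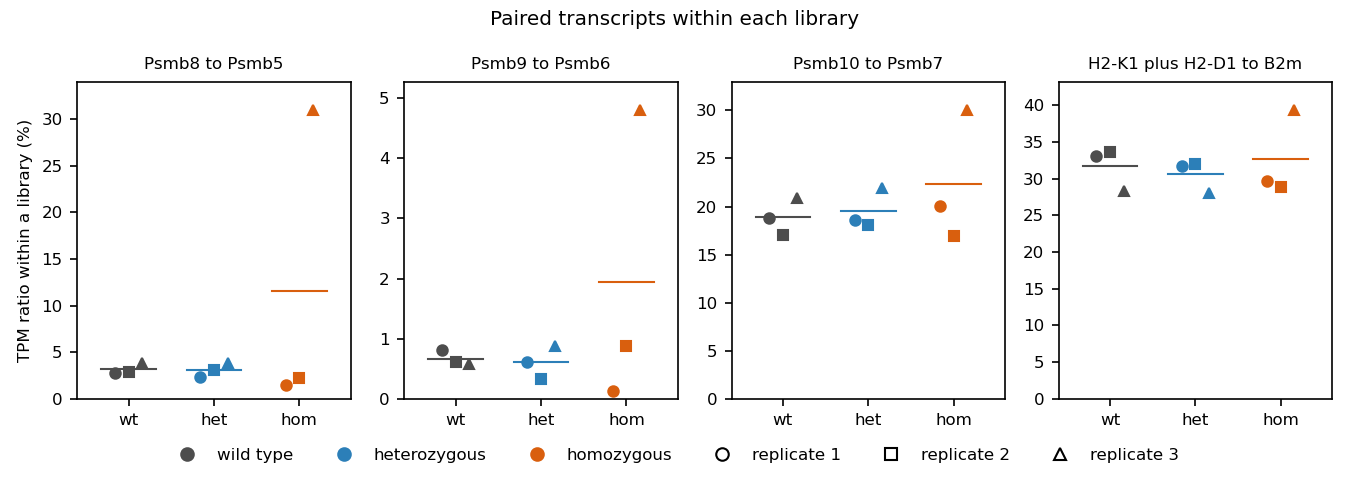
TPM of a class I or immunoproteasome transcript as a percent of its partner's TPM in the same library, by genotype, on linear axes that start at 0; points are libraries and bars are means of 3. *Psmb8* reached 30.9% of *Psmb5* and *Psmb9* 4.80% of *Psmb6* in homozygous replicate 3, while homozygous replicate 1 was lowest for both, at 1.53% and 0.126%.

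The levels of the 9 tested genes varied together over the libraries to differing degrees. Over the 36 pairs of genes, Pearson's r of log2(TPM + 1) over the 9 libraries had a median of 0.74 and was above 0 in 34, and without homozygous replicate 3 the median was 0.55 and 33 were above 0. The highest r was 0.97, between *Tap2* and *Psmb8*, neighbours on chromosome 17, and it was 0.69 without that library. *H2-D1* and *B2m*, on different chromosomes, gave 0.97 with it and 0.95 without it. *Tapbp* was least like the rest, with an r of 0.37 to the mean profile of the 9 genes, and *Erap1* was next with 0.65. Among 9946 other genes that averaged 5 TPM or more, the 8 whose levels were most like that profile over the 9 libraries were *Alg8*, a glucosyltransferase of the endoplasmic reticulum (r = 0.97), *Irf1*, an interferon regulatory factor (0.93), *Tia1* (0.93), *Emg1* (0.93), *Gbp4* (0.92), *Dalrd3* (0.92), the non-classical heavy chain *H2-T23* (0.92) and *Ly6e* (0.92). All 8 were highest in homozygous replicate 3, a point that all these correlations share. *Irf1* was at 9.43 TPM in it against 3.77 to 7.17 in the others, and *H2-T23* at 19.8 against 1.32 to 6.42.

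Other genes of the pathway were described as lists beside the 9. Counts of genes that passed are from the fit of all 9 libraries. Of 17 other class I heavy chains, 12 were tested, 0 passed in any comparison and 2 had an unadjusted p under 0.05 from wild type to homozygous by limma, beside 25.0% of all genes, and their median change there was 0.23, beside 0.23 over all genes. Homozygous replicate 3 was highest for 8 of the 12, beside 16.6% of all genes tested. Among the 12, *H2-Q2* (7.79 TPM in it, at most 0.58 elsewhere) and *H2-Q7* (6.06 TPM, median 0.90 elsewhere) reached a mean of 1 TPM only through that library. *Cd1d1*, which presents lipids, was at 15.4 to 19.6 TPM in wild type, 17.8 to 21.5 in heterozygous and 23.5, 27.7 and 34.0 in homozygous hearts, without overlap between homozygous and wild type (log2 change 0.72, SE 0.16, adjusted p = 0.0882 by limma, range 0.0101 to 0.324 over all settings tried). It passed with library weights and without wild type replicate 3 (adjusted p = 0.0235 by limma), settings in which 5068 and 2170 of all 13682 genes tested passed. *H2-T23* had the lowest change of that list (-0.04, SE 0.65). *H2-M2* was listed at 0 in 8 libraries and at 2.65 TPM in homozygous replicate 3, and *H2-Q10*, a secreted heavy chain made in liver, was at 8.49 TPM in heterozygous replicate 1, the library with liver markers, and at most 0.42 elsewhere.

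None of the 10 other loading complex and chaperone genes, 6 proteasome activator and immunoproteasome genes, 14 constitutive proteasome core genes or 8 cytosolic peptidases passed in any comparison. At an unadjusted p under 0.05 from wild type to homozygous, 1, 2, 0 and 1 of them passed by limma, beside 25.0% of all genes. Their median changes there were 0.14, 0.14, 0.03 and 0.20. Homozygous replicate 3 was highest for 2 of the 10 loading and chaperone genes and 2 of the 6 activator and immunoproteasome genes. It was highest for 0 of the 14 core genes, 0 of the 8 peptidases and 8 of the 23 regulators described below. For class I it was 8 of 9, beside 16.6% of all genes tested. *Tapbpl* of the loading list, with a mean of 3.05 TPM, was at 2.36, 1.52 and 2.66 TPM in wild type, 3.06, 2.10 and 2.20 in heterozygous and 2.98, 3.08 and 7.53 in homozygous hearts. Among genes averaging 5 TPM or more, the ends of these lists were *Sec61a1*, a subunit of the translocation channel (log2 change 0.30), and *Sec61g* (-0.14), *Psme4* (0.51) and *Psme1* (0.06), both proteasome activators, *Psmb1* (0.14) and *Psmb7* (-0.11), and the aminopeptidase *Lnpep* (0.60) and *Nrd1* (0.06). Of the genes at these ends, *Psme4* and *Lnpep* passed with library weights and without wild type replicate 3, and *Sec61a1* with library weights (lowest adjusted p-values 0.00769, 0.0172 and 0.0204 by limma). In those settings 5068 and 2170 of all 13682 genes tested passed. Of 23 regulators of class I genes, 0 passed and 8 had an unadjusted p under 0.05 from wild type to homozygous by limma, all higher, beside 25.0% of all genes at that p and 81.7% of all genes with a change above 0. *Rfxap*, a subunit of the RFX factor that binds the X box, was at 11.9, 11.6 and 9.99 TPM in wild type, 20.75, 18.3 and 15.4 in heterozygous and 27.5, 22.65 and 13.6 in homozygous hearts (log2 change 0.82, SE 0.22). It missed the threshold with all libraries (adjusted p = 0.109 by limma). It passed without homozygous replicate 3 (log2 change 1.09, adjusted p = 0.0279 by limma, range 0.00769 to 0.337 over all settings tried), as 1.81% of all genes did. *Irf9*, part of the interferon-activated factor ISGF3, had the lowest change of the regulators, -0.29 (SE 0.33).

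As a list, the class II genes, which present antigen in dedicated immune cells and in thymic epithelium, set homozygous replicate 3 apart far more than class I did. Their median there was 4.79 relative to all genes, against 0.99 for class I, and 5 of the 6 tested were highest in it. *Ctss* was not set apart, at 10.4 TPM in it against 6.40 to 14.2 in the other 8. *Cd74*, the invariant chain, was at 167 TPM in it and at 1.80 to 2.88 in the other 8, and *H2-Ab1* at 84.4 against 0.62 to 1.86. Of the 11 genes, 6 were tested and 0 passed by limma (0 at an unadjusted p under 0.05), with a median change of 1.66 with homozygous replicate 3 and -0.09 without it. The mean of at least 1 TPM that admitted the 6 includes that library, which favours genes that are high in it.

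The 33 interferon-stimulated genes, several of which share regulators with class I, followed another course in homozygous replicate 3. Homozygous replicate 1 was the lowest library for 24 of the 33, as it was for 7 of the 9 class I genes, while homozygous replicate 3 was the highest for 3. The median change of the 33 from wild type to homozygous was -0.33 beside 0.23 over all genes, and -0.80 from heterozygous to homozygous beside 0.08. Without homozygous replicate 3 their median from wild type to homozygous was -0.70 beside 0.28 over all genes. That of the 9 class I genes was then -0.21, in the same direction. Of the 33, 0 passed in any comparison. At an unadjusted p under 0.05 by limma, 11 were found between wild type and homozygous hearts (9 lower, 2 higher), beside 25.0% of all genes, and 22 between heterozygous and homozygous hearts (21 lower, 1 higher), beside 7.15% of all genes. *Isg15*, a ubiquitin-like protein made after interferon, was at 22.5, 15.6 and 39.5 TPM in wild type, 45.6, 22.2 and 50.2 in heterozygous and 1.77, 7.43 and 18.9 in homozygous hearts. Its log2 change from wild type to homozygous was -1.69 (SE 0.61, adjusted p = 0.143 by limma, range 0.0161 to 0.340 over all settings tried). Among genes of the list averaging 5 TPM or more, *Ifi27* had the highest change (0.59, SE 0.21). *Isg15* passed with library weights, against heterozygous hearts as well (adjusted p = 0.0267 by limma), and *Ifi27* with library weights and without wild type replicate 3 (adjusted p = 0.0162 and 0.0332 by limma). Against wild type, 5068 and 2170 of all 13682 genes tested passed in these settings. Against heterozygous hearts 43 passed with library weights.

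**Figure D4:**
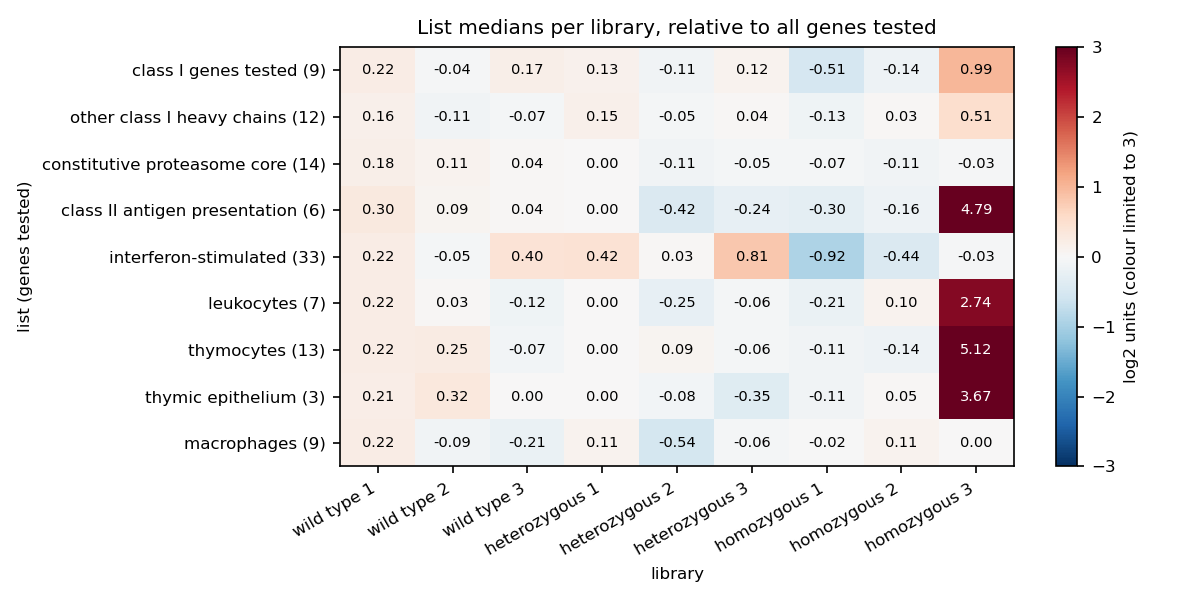
Median over each list of the log2(TPM + 1) difference from the gene's own median over the 9 libraries, minus the same median over all 13682 genes, for each library; the number of genes tested is in brackets. The class I genes stood at 0.99 in homozygous replicate 3 and at -0.51 in homozygous replicate 1, thymocyte markers at 5.12 in homozygous replicate 3, and interferon-stimulated genes at -0.92 in homozygous replicate 1 and 0.81 in heterozygous replicate 3. The mean of at least 1 TPM that admitted 13 of the 14 thymocyte markers includes homozygous replicate 3. It therefore favours genes that are high in that library, as it does in the other lists, and the 5.12 is not independent of that choice.

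Set side by side in the plot of list medians, the class I genes lay within 0.22 of all genes in the wild type and heterozygous libraries and at -0.14 in homozygous replicate 2. Only homozygous replicates 1 and 3, of the 9 libraries, lay further away.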

How the data were processed

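RNA of E18.5 mouse hearts had been captured on poly-A beads and sequenced in 9 libraries, 3 of each genotype. The deposited values are TPM, which the authors obtained with RSEM from reads trimmed by Trim Galore and aligned to mm10 by STAR. Which annotation was used, and whether counting was stranded, is not given in the sources used here. TPM keeps no depth. DESeq2, named in the submitters' processing notes, takes counts and was therefore not applied.

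Of 24597 symbols, 26 corrupted into calendar dates were dropped (0.0921% of a library or less). Libraries were grouped by their titles. Values were analysed as log2(TPM + 1), computed from the deposited TPM, for the 13682 genes averaging 1 TPM or more. All 9 libraries entered 1 linear model of genotype in limma 3.58.1 (R 4.3.3, eBayes with trend), and two-sided p-values were adjusted by Benjamini-Hochberg over all genes tested, with a threshold of 0.05. The procedure was tested on simulated data. Ratios of TPM were compared by exact permutation tests (SciPy 1.17.1, Python 3.11.15), adjusted over 12 comparisons. Promoter windows came from RefSeq and gene models and shared 31-base words from GENCODE M21. The members, the gene lists and the tests were chosen with earlier results of these data known. Genes named besides the members were the highest and the lowest change of each list among genes averaging 5 TPM or more. Named as well were the partners of the immunoproteasome subunits, the 8 genes of the most similar pattern, *Ctcf* and defining markers. *Cd8a*, *H2-Ab1*, *H2-M2*, *H2-Q10*, *Scgb3a2*, *Scgb1a1* and *Sftpc* were named after their values were seen. Alternatives were other pseudocounts, minimum levels, scalings and variance models, a sex covariate, a replicate block and left-out libraries.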

Additional observations from a re-analysis of the deposited data

How the results depend on the processing

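In each of 22 settings, 0 class I genes were called, and the lowest adjusted p of any of them was 0.0692 (limma). The median class I change relative to all genes moved most without homozygous replicate 3, from -0.02 to -0.49 between wild type and homozygous hearts. No move in any comparison and setting run exceeded 0.467, the SD of the list between replicates, pooled over the genotypes. That SD is itself widened by homozygous replicates 1 and 3, at -0.51 and 0.99 relative to all genes. It therefore cannot show that the move without replicate 3 was small. Signs of uncalled changes did turn. From wild type to homozygous, median-ratio scaling gave log2 changes of -0.20 for *H2-K1*, -0.17 for *H2-D1*, -0.23 for *B2m*, -0.11 for *Tap1* and -0.021 for *Tapbp*, and quantile normalization gave -0.15, -0.12, -0.042, -0.18 and -0.0065 for the same genes and -0.019 for *Erap1*. Library weights gave -0.30 for *H2-K1*, -0.14 for *H2-D1*, -0.10 for *B2m*, -0.41 for *Tap1*, -0.30 for *Psmb8* and -0.32 for *Psmb9*. With *Xist* as a covariate *Psmb9* was at 0.61 from wild type to heterozygous. Without wild type replicate 1, heterozygous replicate 1 and homozygous replicate 3 together, the changes were -0.27 for *H2-K1*, -0.24 for *H2-D1*, -0.19 for *B2m*, -0.55 for *Tap1*, -0.082 for *Tap2*, -0.69 for *Psmb8* and -0.23 for *Psmb9*, and that of *Tap2* from heterozygous to homozygous was -0.094. In the same remaining libraries the log2 ratio differences from wild type to homozygous were -0.86 for *Psmb8* to *Psmb5*, -0.83 for *Psmb9* to *Psmb6*, -0.036 for *Psmb10* to *Psmb7* and -0.075 for the heavy chains to *B2m*. From heterozygous to homozygous they were -0.91, -0.69, -0.12 and -0.033, and *Psmb8* to *Psmb5* was 0.054 from wild type to heterozygous.

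Leaving out 1 library at a time gave ranges that crossed 0. From wild type to homozygous they were -0.39 to 0.27 for *H2-K1*, -0.21 to 0.34 for *H2-D1*, -0.20 to 0.22 for *B2m*, -0.52 to 0.56 for *Tap1*, -0.089 to 1.04 for *Tap2*, -0.59 to 1.24 for *Psmb8* and -0.33 to 1.19 for *Psmb9*, each with its low end without homozygous replicate 3 and its high end without homozygous replicate 1. From heterozygous to homozygous the ranges of 9 of the 9 genes crossed 0, among them -0.38 to 0.16 for *H2-D1* and -0.064 to 1.06 for *Tap2*, the lowest and highest changes with all libraries, and -0.32 to 0.34 for *H2-K1*, -0.30 to 0.12 for *B2m*, -0.64 to 0.44 for *Tap1*, -0.57 to 1.26 for *Psmb8* and -0.22 to 1.30 for *Psmb9*. From wild type to heterozygous those of 6 of the 9 did, -0.30 to 0.12 for *Psmb9* among them. For the log2 ratios, the ranges from wild type to homozygous were -0.77 to 1.40 for *Psmb8* to *Psmb5*, -0.98 to 1.65 for *Psmb9* to *Psmb6*, -0.036 to 0.38 for *Psmb10* to *Psmb7* and -0.11 to 0.11 for the heavy chains to *B2m*. From heterozygous to homozygous they were -0.72 to 1.45, -0.75 to 1.87, -0.084 to 0.33 and -0.061 to 0.16, and from wild type to heterozygous -0.22 to 0.15, -0.56 to 0.16, -0.038 to 0.12 and -0.12 to 0.015. The cause of these turns was not tested beyond the libraries named.

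Calls over all genes between wild type and homozygous hearts were 46 with all libraries, 247 without homozygous replicate 3, 2170 without wild type replicate 3 and 5068 with library weights. Of the other genes named for the ends of their lists, *Cd1d1*, *Ifi27*, *Lnpep* and *Psme4* passed in both of the last 2 settings. Same-numbered libraries did not deviate together in every pair (correlations of -0.03 to 0.36), so that the numbers were not taken as pairs. The highest were between wild type and heterozygous libraries, 0.36 for replicates 1 and 0.30 for replicates 3. Differently numbered libraries of these genotypes gave -0.31 to 0.12. Why the same-numbered ones were more alike was not tested. With a replicate block, 17, 1 and 1 genes were called in the 3 comparisons and 0 class I genes. The depth of the libraries is unknown, which limits what can be said of *Nlrc5* and *Psmb9* at their low levels.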
